A study of Mus musculus with 4 samples.

Results

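Translation initiation factors bring the small ribosomal subunit, the initiator tRNA and the capped mRNA together at the start codon. The genes described here are the 46 rows of the deposited expression table whose name starts with Eif, of 18169 rows in all. Names starting with Eif2ak (kinases that phosphorylate eIF2) or Eif4ebp (proteins that bind eIF4E) and the Y-linked Eif2s3y were left out. The rows were sorted by name into eIF1 (5 rows), eIF2 (5 rows), eIF2B (5 rows), eIF3 (14 rows), eIF4 (12 rows), eIF5 (4 rows) and eIF6 (1 row), so that a group holds the genes that share a factor's number and not always the subunits of one complex.

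RNA-seq was performed on primary neural stem/progenitor cells (NSCs) of C57BL/6 mice, 2 samples labelled +/+ (wild type) and 2 labelled Chd5-/- (homozygous mutant for the chromatin remodeler Chd5). The cultures came from periventricular tissue of individual newborns, grown in medium with epidermal growth factor and fibroblast growth factor 2, the same for both genotypes. The growth protocol names postnatal day 1 for all cultures. The age entries instead run from day 1 (+/+ replicate 1) and day 2 (+/+ replicate 2) to day 3 and day 4 (Chd5-/- replicates 1 and 2), and by these entries age and genotype cannot be told apart. The question asked of the genes is how the RNA of each factor differed between the genotypes, in a study that connects Chd5 to the control of translation.

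By way of background, eIF2 carries the initiator tRNA in a form bound to GTP, and eIF2B reloads eIF2 with GTP after each round. The large eIF3 complex coats the small subunit, eIF1 and eIF1A guard the choice of the start codon, and the eIF4 proteins recognise the cap and unwind the leader of the mRNA. Activation of neural stem cells out of quiescence is known for a rise in protein synthesis, and phosphorylation of eIF2 and sequestering of eIF4E are the main known brakes on initiation.

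TPM, the transcript abundance unit of the deposited table, is per length, so levels can be compared between genes, but it keeps no record of read number and the depth of each sample is unknown. Each sample adds to about the same TPM total, so a change in abundant transcripts shifts all others. Chd5 itself was at 0.39 and 0.37 TPM in +/+ and 0.06 and 0.04 TPM in Chd5-/- NSCs. All 7 listed neural stem/progenitor markers were present. Their summed level was 6527 to 7924 TPM in the +/+ samples and 3405 to 5613 TPM in the Chd5-/- samples, most of it Fabp7. Fabp7, Hes1, Sox2 and Vim, 4 of the 7, were lower in both Chd5-/- samples (against 13.0% of all rows). Sox2 was so by little in Chd5-/- replicate 2 (432.19 TPM, against 438.99 and 441.66 TPM in +/+). Nes, Pax6 and Sox9 overlapped between the genotypes. The 5 astrocyte markers summed to 1858 to 1950 TPM in the +/+ samples and 553 to 1319 TPM in the Chd5-/- samples, most of it Slc1a3, which was lower at an unadjusted p-value under 0.05. The others were mixed: Gfap was at 0.71 TPM in Chd5-/- replicate 1 and 13.89 TPM or more in the other 3 samples, whereas Aqp4 had 25.22 and 114.87 TPM in +/+ and 55.81 and 202.85 TPM in Chd5-/- NSCs. The 5 neuronal markers ranged from 510 to 519 TPM and from 369 to 797 TPM, nearly all of it Map2, and the 5 oligodendrocyte lineage markers from 175 to 180 TPM and from 199 to 253 TPM. Microglial (1 of 4 analysed), endothelial (2 of 3) and mesenchymal (5 of 5) markers summed to at most 0.17, 0.70 and 4.82 TPM in any sample. Most of the 4.82 TPM was Dcn, at 0 TPM in both +/+ samples, 4.17 TPM in Chd5-/- replicate 1 and 0.06 TPM in Chd5-/- replicate 2, while Col1a1 was at or below 0.07 TPM throughout. The part of these marker levels in the results below was not tested, and fewer cells of a type and less RNA per cell cannot be told apart in bulk samples.

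Together the initiation factors took 0.796% and 0.724% of all TPM in +/+ and 0.854% and 0.760% in Chd5-/- NSCs, ranges that overlapped. Of the 46 rows, 45 had a mean of at least 1 TPM and were tested. The exception was Eif4e3, a minor cap-binding homolog, at 0.20 and 0.38 TPM in the +/+ samples and 0.30 and 0.08 TPM in the Chd5-/- samples. Mean +/+ levels of the 45 went from 7.59 TPM for Eif2b4 to 795 TPM for Eif4a1, the cap-dependent helicase. Mean +/+ levels lay between 7.59 and 24.1 TPM for the eIF2B subunits and between 31.6 and 482 TPM for the eIF3 genes, ranges that met within single samples (in +/+ replicate 2, Eif2b3 was at 21.48 and Eif3k at 20.83 TPM).

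**Figure D1:**
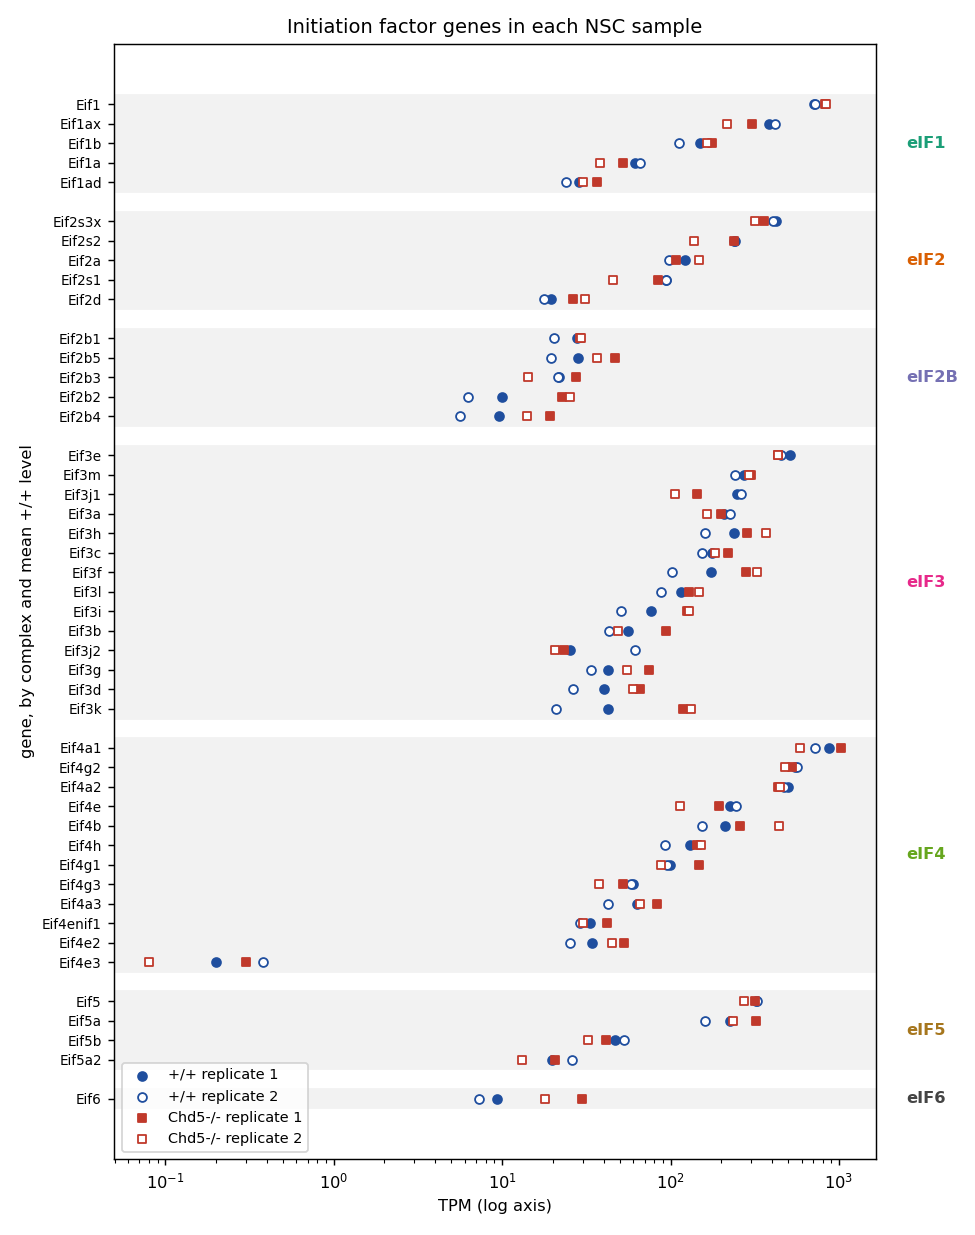
Level of each of the 46 initiation factor genes in each sample, in TPM on a log axis, by complex. Circles are +/+ and squares Chd5-/- samples (filled, replicate 1, open, replicate 2), and the squares of Eif3k sit at 118.85 and 131.38 TPM, to the right of its circles at 42.34 and 20.83 TPM.

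None of the 45 genes passed an adjusted p-value of 0.05 with limma on log2(TPM + 1), against 0.0557% of the 12576 rows tested. The smallest adjusted p-value among them was 0.120, for Eif3k and for Eif2b2. At an unadjusted p-value under 0.05, 11 genes were higher in Chd5-/- NSCs (24.4%, against 21.9% of all rows) and 1 was lower (2.22%, against 2.27% of all rows), so that both shares were near those of all rows. The 11 genes were Eif2b2, Eif2b4, Eif2b5, Eif3d, Eif3f, Eif3g, Eif3i, Eif3k, Eif4b, Eif4e2 and Eif6, and the 1 lower gene was Eif3j1. Chd5-/- values were both above the +/+ values for 23 genes (51.1%, against 46.3% of all rows) and below them for 15 genes (33.3%, against 13.0% of all rows). Of these 12 genes, Eif2b2 and Eif3k kept an unadjusted p-value under 0.05 whichever sample was left out. Eif3d, Eif3f, Eif3i and Eif6 lost it without +/+ replicate 2, Eif2b4 without +/+ replicate 2 or Chd5-/- replicate 1, and Eif3j1 without either +/+ sample. Eif2b5, Eif3g and Eif4e2 kept it only without Chd5-/- replicate 2, and Eif4b only without Chd5-/- replicate 1. The spread in these fits comes only from the genotype that keeps both samples. Their p-values therefore do not compare directly with those of the fit on all samples.

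The median size of the log2 difference between the genotypes was 0.45 over the 45 genes, against 0.27 between the 2 +/+ samples and 0.33 between the 2 Chd5-/- samples. The first value compares means of 2 samples and the others compare single samples, so they are not like measures. It also holds the shift of all rows, whose median log2 fold change was 0.34. With 2 samples against 2, an exact permutation test of a single gene cannot go below p = 0.333.

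The balance of higher and lower genes depended on the scaling between samples. Over all rows tested the median log2 fold change was 0.34 as deposited, -0.032 under median-of-ratios scaling (which sets the median gene equal between samples), -0.052 under quantile normalization and -0.011 net of trends with GC content and transcript length. Removal of the trends also took out the offset of each sample as a whole. Values net of the trends therefore differ from those deposited by both, and the 2 parts were not separated. For the initiation factors the medians were 0.22, -0.20, 0.090 and -0.17, so their median lay below that of all rows in 3 of the 4 and above it under quantile normalization. At an unadjusted p-value under 0.05, 4 genes were higher and 10 lower under median-of-ratios scaling (against 11.1% and 12.0% of all rows). There were 6 higher and 4 lower under quantile normalization (8.78% and 8.14%), and 3 higher and 2 lower net of the trends (4.86% and 5.54%). The 10 lower genes under median-of-ratios scaling were Eif1a, Eif1ax, Eif2s1, Eif2s3x, Eif3a, Eif3e, Eif3j1, Eif4e, Eif4g3 and Eif5b. The 2 lower genes net of the trends were Eif3j1 and Eif4g3. Genes whose genotypes did not overlap numbered 11 above and 18 below under median-of-ratios scaling (against 28.3% and 32.0% of all rows), 16 and 16 under quantile normalization (24.3% and 30.0%), and 7 and 14 net of the trends (21.3% and 24.5%). No initiation factor passed the adjusted threshold under these 3 scalings, against 0.0477%, 0.0318% and 0.0256% of all rows.

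**Figure D2:**
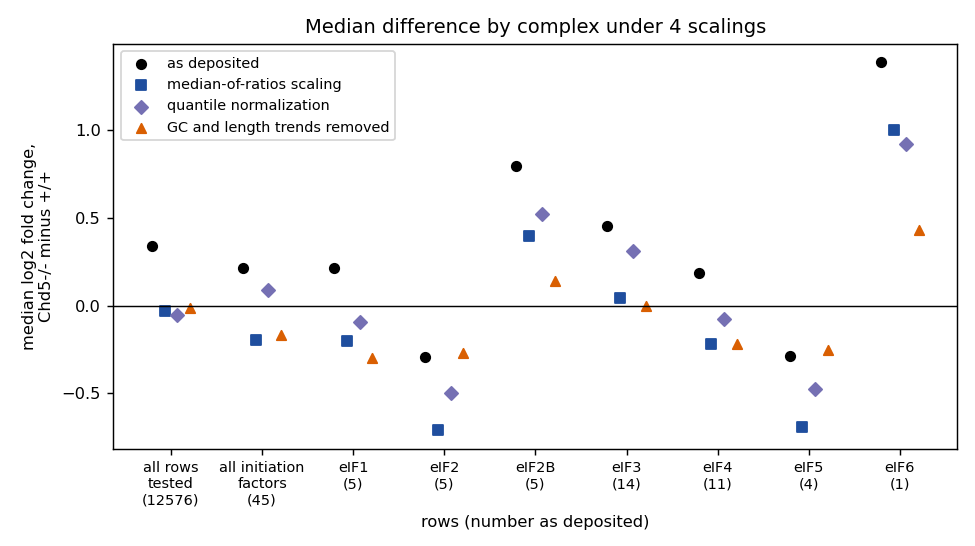
Median log2 fold change (Chd5-/- minus +/+, vertical axis) of all rows tested, of the 45 initiation factors and of each complex, with the number of rows below each name and a symbol for each of 4 scalings. The eIF2B median went from 0.80 as deposited to 0.14 net of GC and length trends, and the eIF2 median was below 0 under all 4. The median of all rows went from 0.34 to -0.011 in the same step.

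The differences of these genes were set beside GC content and transcript length. Across the 45 genes, which come from the same 4 libraries and do not count as replicates, values of the log2 fold change went up with transcript GC content (Spearman's rho = 0.82, against 0.62 across 11700 rows). The difference between the 2 +/+ samples followed GC content in the same direction (rho = 0.73, replicate 1 minus replicate 2), and that between the 2 Chd5-/- samples had a rho of -0.12. The log2 fold change went down with transcript length (rho = -0.60). Net of both trends over all rows, the correlation with GC content across the 45 genes was 0.32. GC content ran from 38.8% for Eif5a2 to 57.9% for Eif6, and its median was 53.2% in eIF2B, 50.6% in eIF3, 43.6% in eIF2 and 42.7% in eIF5. Its part in the differences of single genes was not tested apart from this removal.

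**Figure D3:**
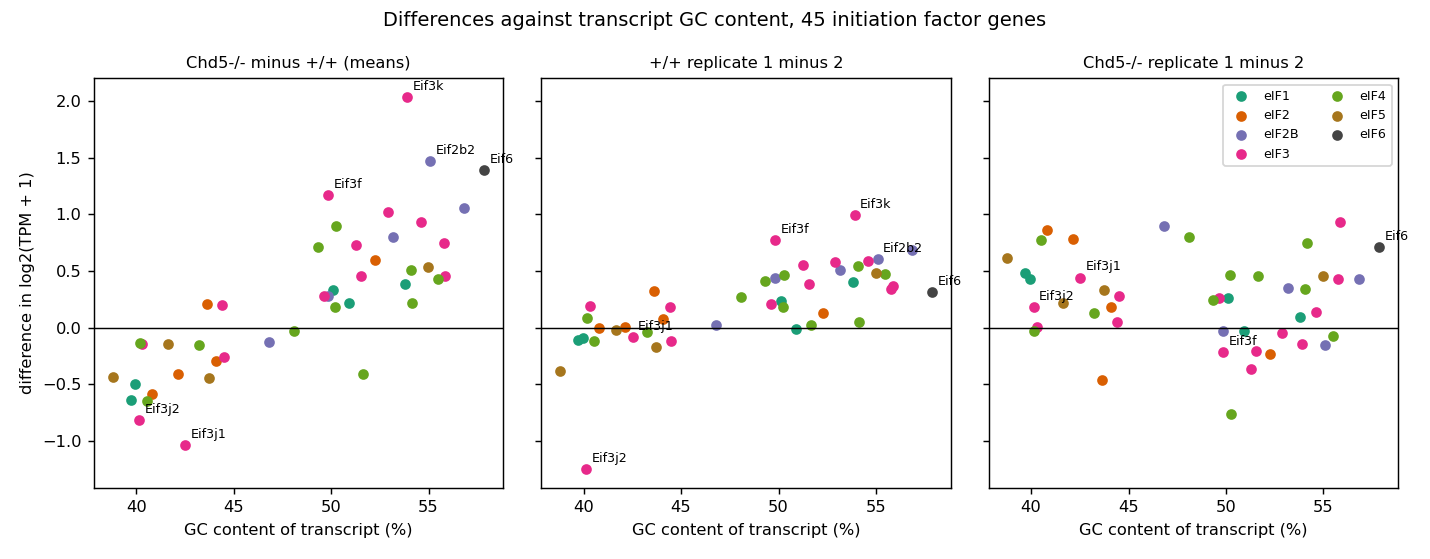
Difference in log2(TPM + 1) against the GC content of the transcript (%) for the 45 genes tested, each point a gene coloured by complex. Left, mean of Chd5-/- minus mean of +/+ samples (rho = 0.82), middle, between the 2 +/+ samples (rho = 0.73), and right, between the 2 Chd5-/- samples (rho = -0.12).

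Among the 14 eIF3 genes, 5 were higher (35.7%, against 21.9% of all rows) and 1 was lower (7.14%, against 2.27%) at an unadjusted p-value under 0.05, and the remaining 8 did not pass it. Chd5-/- values were both above the +/+ values for 9 (64.3%, against 46.3% of all rows), below for 4 (28.6%, against 13.0%) and overlapped for 1 (Eif3b). The median log2 fold change was 0.45 as deposited, 0.044 under median-of-ratios scaling, 0.31 under quantile normalization and 0.00034 net of GC and length trends. The fold changes of the subunits ran from -1.04 for Eif3j1 to 2.03 for Eif3k.

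Eif3k and Eif3f showed the largest positive differences of the complex, and Eif3j1 the most negative. These 3 genes are shown at their RefSeq transcription start (GRCm38.p6), together with Eif2s3x, because Eif3f and Eif2s3x were the 2 of 37 matched genes with the TOP motif at an annotated start, the pyrimidine-rich mRNA start by which mTOR controls ribosomal protein mRNAs. Each line gives 15 bases before the start and 15 from the start on, 5′ to 3′ on the gene's strand, with the start base or, where present, the 5 bases of the TOP motif in capitals. The motif was searched only as a C at the start followed by 4 pyrimidines on the gene's strand, and 2.51% of 32851 starts of all genes hold it, against 2 of 49 starts (4.08%) of the initiation factors.
Eif3k: aaaacaaccggcgctGgtgctgaaagcgcc
Eif3f: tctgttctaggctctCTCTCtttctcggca
Eif3j1: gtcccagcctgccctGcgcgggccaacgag
Eif2s3x: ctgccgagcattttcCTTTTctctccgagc
The windows are chr7:28981874-28981903 (minus strand), chr7:108934400-108934429 (plus), chr2:122028565-122028594 (plus) and chrX:94212637-94212666 (minus). Of the 46 genes, 37 had starts that were searched, and Eif1a, Eif2b3, Eif3e, Eif3h, Eif3i, Eif3j2, Eif4e3, Eif4g2 and Eif6 were not searched. The motif share of the initiation factors covers these 37 genes only, and its difference from the share of all starts was not tested. Eif3f and Eif2s3x, which share the motif, differed in opposite directions.

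Eif3k, the smallest subunit and a peripheral one (chromosome 7 of GRCm38, 28971372 to 28981864, minus strand), was at 42.34 and 20.83 TPM in +/+ and 118.85 and 131.38 TPM in Chd5-/- NSCs. The Chd5-/- samples were close to each other, while the +/+ samples differed by about as much as replicate 2 itself measured. The means were 31.6 ± 15.2 TPM (SD, n = 2) in +/+ and 125 ± 8.86 TPM (SD, n = 2) in Chd5-/- NSCs, giving a log2 difference of 2.03 (standard error 0.37, adjusted p = 0.120 with limma). It was 1.24 net of GC and length trends, and over all alternatives it lay between 1.24 and 2.53. With 1 Chd5-/- sample left out it was 2.11 (without replicate 1) and 1.96 (without replicate 2).

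Eif3f, one of the pair of MPN-domain subunits (chromosome 7, 108934417 to 108942951, plus strand), was at 174.87 and 101.74 TPM in +/+ and 279.85 and 325.01 TPM in Chd5-/- NSCs. All Chd5-/- values were above all +/+ values, and the log2 fold change was 1.17 (standard error 0.32, adjusted p = 0.137), or 0.81 net of the trends. Its transcript has a GC content of 49.8%, close to the 49.6% median of all rows. Eif3h, the other MPN-domain subunit, was at 237.00 and 160.85 TPM in +/+ and 285.85 and 368.42 TPM in Chd5-/- NSCs, again without overlap.

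Eif3j1 encodes the loosely bound eIF3j, which sits at the decoding site of the small subunit (chromosome 2, 122028546 to 122056598, plus strand). It was at 247.16 and 261.79 TPM in +/+ and 143.86 and 105.71 TPM in Chd5-/- NSCs. The samples of each genotype were near each other and far from the other genotype, with a log2 fold change at -1.04 (standard error 0.25, adjusted p = 0.124). The value was -0.98 net of the trends and -1.45 under median-of-ratios scaling. It was -1.26 without Chd5-/- replicate 1 and -0.82 without Chd5-/- replicate 2. Its near-identical copy Eif3j2 had 25.21 and 61.23 TPM in the +/+ samples and 23.40 and 20.54 TPM in the Chd5-/- samples, with a log2 fold change at -0.82 (standard error 0.45, adjusted p = 0.321), or -0.63 net of the trends. The 2 +/+ samples were far apart, and the value was -0.19 without +/+ replicate 2 and -1.44 without +/+ replicate 1. Of the stretches of 50 bases in the Eif3j2 transcript, 90.8% also occur in Eif3j1 transcripts, so the split of reads between them is uncertain. The sum of both was 272 and 323 TPM in the +/+ samples and 167 and 126 TPM in the Chd5-/- samples, without overlap.

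Eif3i, Eif3d and Eif3g were the other eIF3 genes with an unadjusted p-value under 0.05. Eif3i, a beta-propeller subunit, was at 76.07 and 50.43 TPM in +/+ and 124.44 and 128.64 TPM in Chd5-/- NSCs (log2 fold change 1.02, standard error 0.27, adjusted p = 0.133). Eif3d, which can bind the cap of selected mRNAs, was at 39.98 and 26.21 TPM against 66.01 and 59.86 TPM (0.94, standard error 0.28, adjusted p = 0.152). Eif3g, which has an RNA recognition motif, was at 42.67 and 33.48 TPM against 74.53 and 54.96 TPM (0.74, standard error 0.27, adjusted p = 0.185). Net of the trends and of the offset between samples these became 0.34, 0.17 and -0.15, so that the sign of Eif3g turned. Under median-of-ratios scaling they were at 0.61, 0.53 and 0.34.

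Eif3e and Eif3m had the highest mean +/+ levels of the eIF3 genes, although Eif3j1 was above Eif3m in +/+ replicate 2. Eif3e, a PCI-domain subunit, was at 513.19 and 450.05 TPM in +/+ and 435.66 and 434.87 TPM in Chd5-/- NSCs. Eif3m, another PCI-domain subunit, went the other way, with 274.03 and 241.72 TPM against 301.81 and 291.47 TPM. For Eif3a, the scaffold of the complex, the +/+ samples were at 208.18 and 225.31 TPM and the Chd5-/- samples at 199.51 and 164.09 TPM. Eif3b, Eif3c and Eif3l lay between 43.29 and 177.13 TPM in the +/+ samples and between 48.98 and 218.18 TPM in the Chd5-/- samples.

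Shares within a sample do not depend on a single scaling factor per sample, such as median-of-ratios scaling, though quantile normalization and GC and length trends can move them. Eif3k took 1.90% and 1.09% of the summed eIF3 TPM in +/+ and 4.76% and 5.33% in Chd5-/- NSCs. Eif3f took 7.85% and 5.31% against 11.2% and 13.2%. By contrast, Eif3j1 took 11.1% and 13.7% against 5.77% and 4.29%, and Eif3e took 23.0% and 23.5% against 17.5% and 17.6%. Each of these 4 shares was without overlap between the genotypes. The ratio of Eif3k to Eif3j1 TPM was 0.171 and 0.0796 in +/+ and 0.826 and 1.24 in Chd5-/- NSCs, so that Eif3k was the scarcer RNA in 3 of the 4 samples and the more abundant one in Chd5-/- replicate 2.

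**Figure D4:**
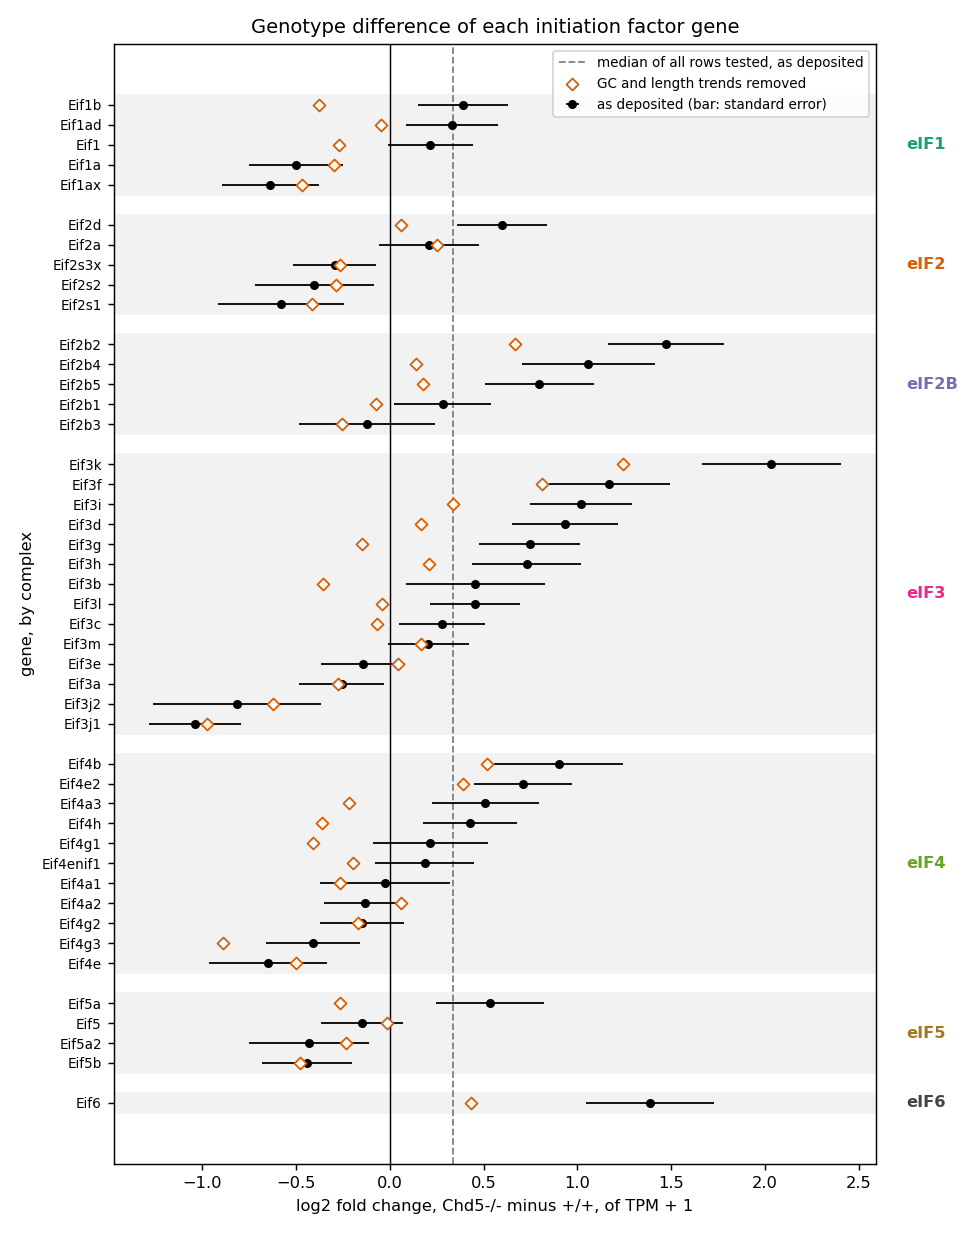
Log2 fold change (Chd5-/- minus +/+, of TPM + 1) of the 45 genes tested, ordered within each complex. Black points with standard errors are the values as deposited. Open diamonds are those net of GC and length trends and of the offset between samples. Eif3k went from 2.03 to 1.24 and Eif3g from 0.74 to -0.15. The dashed line is the median of all rows tested, 0.34.

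Of the 5 subunits of eIF2B, the exchange factor of eIF2, 3 were higher in Chd5-/- NSCs at an unadjusted p-value under 0.05 (against 21.9% of all rows) and 4 had both Chd5-/- samples above both +/+ samples (against 46.3%). The median log2 fold change was 0.80, and 0.40, 0.52 and 0.14 under median-of-ratios and quantile scaling and net of GC and length trends. Eif2b2, the beta subunit (chromosome 12, 85219481 to 85226628, plus strand), was at 10.04 and 6.27 TPM in +/+ and 22.55 and 25.21 TPM in Chd5-/- NSCs. Its log2 fold change was 1.47 (standard error 0.31, adjusted p = 0.120) and 0.67 net of the trends. Eif2b4, the delta subunit (chromosome 5, 31187558 to 31193430, minus strand), was at 9.59 and 5.58 TPM against 19.19 and 13.96 TPM (1.06, standard error 0.36, adjusted p = 0.171). For Eif2b5, the catalytic epsilon subunit (chromosome 16, 20498817 to 20509323, plus strand), the levels were 28.12 and 19.44 TPM against 46.86 and 36.57 TPM (0.80, standard error 0.29, adjusted p = 0.186). Removal of the trends left 0.14 for Eif2b4 and 0.18 for Eif2b5.

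The other eIF2B subunits differed less. Eif2b1, the alpha subunit in the part that senses phosphorylated eIF2, was at 27.79 and 20.31 TPM in +/+ and 28.86 and 29.38 TPM in Chd5-/- NSCs, where the highest +/+ value nearly met the Chd5-/- values. Eif2b3, the gamma subunit and partner of epsilon, was at 21.82 and 21.48 TPM in +/+ and 27.41 and 14.24 TPM in Chd5-/- NSCs, which lay on either side of the +/+ values. Its log2 fold change was -0.12 (standard error 0.36, adjusted p = 0.853), -0.26 net of the trends, -0.57 without Chd5-/- replicate 1 and 0.33 without Chd5-/- replicate 2. As a share of the summed eIF2B TPM, Eif2b2 took 10.3% and 8.58% in +/+ and 15.6% and 21.1% in Chd5-/- NSCs, and Eif2b3 took 22.4% and 29.4% against 18.9% and 11.9%.

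The 3 subunits of eIF2 itself were lower in both Chd5-/- samples (against 13.0% of all rows). None had an unadjusted p-value under 0.05 as deposited. Eif2s1, the alpha subunit that stress kinases phosphorylate, was at 93.42 and 93.40 TPM in +/+ and 84.00 and 45.75 TPM in Chd5-/- NSCs. Chd5-/- replicate 2 alone was far from the +/+ values, and the log2 fold change was -0.58 (standard error 0.34, adjusted p = 0.340), -0.41 net of the trends, -0.15 without that sample, and -1.01 without Chd5-/- replicate 1. Eif2s2, the beta subunit, was at 240.39 and 239.33 TPM against 237.78 and 137.77 TPM, so that only Chd5-/- replicate 2 stood apart. Eif2s3x, the gamma subunit that holds GTP and the initiator tRNA, was at 424.93 and 404.08 TPM against 360.04 and 316.54 TPM. It is X-linked with a Y-linked partner, and all 4 samples had the X-inactivation RNA Xist (215 to 475 TPM) with Kdm5d, Uty and Eif2s3y at or below 0.07 TPM, so that by these genes the samples did not differ in sex.

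Eif2a and Eif2d carry the same number but are separate proteins that can deliver or release tRNA outside the eIF2 cycle. Eif2d was at 19.45 and 17.65 TPM in +/+ and 26.28 and 31.09 TPM in Chd5-/- NSCs, with a log2 fold change at 0.60 (standard error 0.24, adjusted p = 0.212), or 0.058 net of the trends. Eif2a was at 121.82 and 97.24 TPM against 107.41 and 147.98 TPM, with overlap. The median of the 5 eIF2 rows was -0.29 as deposited and between -0.71 and -0.27 under the other 3 scalings.

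In the eIF4 group, 2 of 11 genes tested (18.2%, against 21.9% of all rows) were higher at an unadjusted p-value under 0.05 and 0 were lower (against 2.27%). The median log2 fold change was 0.19 as deposited and became -0.22, -0.073 and -0.22 under median-of-ratios and quantile scaling and net of the trends. Eif4b, the cofactor of the helicase (chromosome 15, 102073773 to 102097173, plus strand), was at 211.13 and 153.15 TPM in +/+ and 258.16 and 437.89 TPM in Chd5-/- NSCs. The Chd5-/- samples were further apart than the genotypes at their nearest, and the log2 fold change was 0.90 (standard error 0.34, adjusted p = 0.198), or 0.52 net of the trends. Without Chd5-/- replicate 1 it was 1.28, and without Chd5-/- replicate 2 it was 0.52. Eif4h, which resembles Eif4b, was at 129.86 and 92.96 TPM against 144.44 and 152.21 TPM.

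The cap-binding genes differed in opposite directions. Eif4e, which binds the cap and loads the scaffold (chromosome 3, 138526179 to 138559696, plus strand), was at 224.24 and 242.87 TPM in +/+ and 194.06 and 113.39 TPM in Chd5-/- NSCs, lower in both. Its log2 fold change was -0.65 (standard error 0.32, adjusted p = 0.273), -0.26 without Chd5-/- replicate 2 and -1.03 without Chd5-/- replicate 1. Eif4e2, a homolog that binds caps without recruiting the scaffold and represses translation (chromosome 1, 87213914 to 87240488, plus strand), was at 34.14 and 25.36 TPM against 53.18 and 44.80 TPM (0.71, standard error 0.26, adjusted p = 0.187). Both directions were kept net of the trends, at -0.50 and 0.39. Of the TPM of both genes, Eif4e held 86.8% and 90.5% in +/+ and 78.5% and 71.7% in Chd5-/- NSCs.

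The helicase pair differed little. Eif4a1 was at 868.74 and 722.02 TPM in +/+ and 1026.79 and 589.69 TPM in Chd5-/- NSCs, with a log2 fold change at -0.025 (standard error 0.35, adjusted p = 0.971) that was -0.26 net of the trends, -0.42 without Chd5-/- replicate 1 and 0.37 without Chd5-/- replicate 2. Eif4a2, the paralog with more weight in neurons, was at 497.27 and 468.38 TPM against 435.16 and 443.82 TPM (-0.13, standard error 0.22, adjusted p = 0.725), and its value was 0.058 net of the trends. Eif4a3, which works in the exon junction complex and not in initiation, was at 62.85 and 42.76 TPM against 83.59 and 65.90 TPM.

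Scaffold genes also differed from each other. Eif4g1, the main scaffold, was at 99.05 and 95.81 TPM in +/+ and 147.15 and 87.18 TPM in Chd5-/- NSCs, with overlap and a log2 fold change at 0.22 (standard error 0.31, adjusted p = 0.688) that was -0.20 under median-of-ratios scaling, -0.41 net of the trends, -0.16 without Chd5-/- replicate 1 and 0.59 without Chd5-/- replicate 2. Eif4g3 was at 59.48 and 58.48 TPM against 51.94 and 37.56 TPM, lower in both Chd5-/- samples, with -0.41 (standard error 0.25, adjusted p = 0.367) as deposited, -0.89 net of the trends, -0.64 without Chd5-/- replicate 1 and -0.18 without Chd5-/- replicate 2. Eif4g1 held 62.5% and 62.1% of the TPM of the pair in +/+ and 73.9% and 69.9% in Chd5-/- NSCs, without overlap. Eif4g2, a scaffold that lacks the eIF4E site, was at 549.18 and 562.14 TPM against 524.94 and 478.35 TPM, and Eif4enif1, the eIF4E transporter, at 33.18 and 29.04 TPM against 41.74 and 30.05 TPM.

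**Figure D5:**
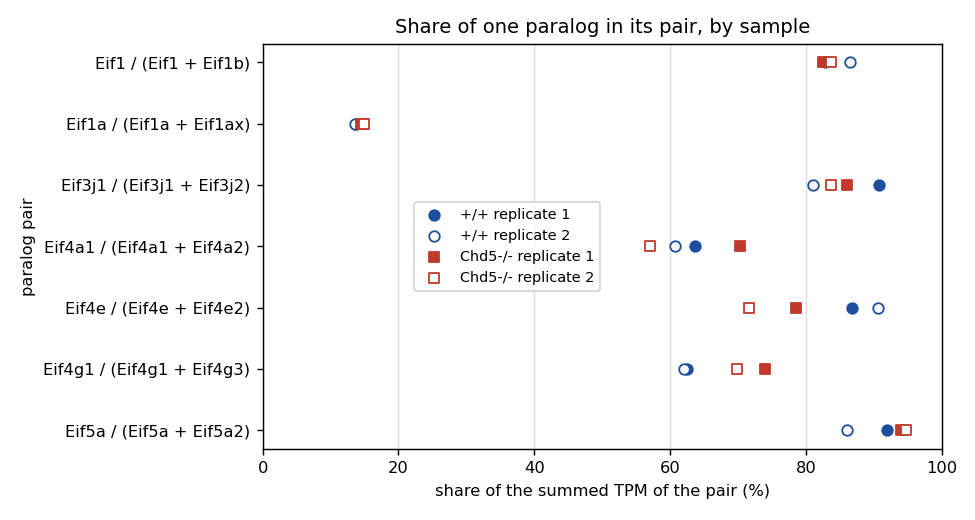
Share of one paralog in the summed TPM of its pair (%), for 7 pairs in each sample, with circles for +/+ and squares for Chd5-/-. The squares of Eif4e lie at 78.5% and 71.7%, left of its circles at 86.8% and 90.5%, and those of Eif4g1 at 73.9% and 69.9%, right of its circles at 62.5% and 62.1%.

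No gene of the eIF1 group had an unadjusted p-value under 0.05. Both Chd5-/- values were above the +/+ values for 3 of the 5 (against 46.3% of all rows) and below them for 2 (against 13.0%). Eif1, the fidelity factor, was at 712.76 and 716.76 TPM in +/+ and 821.65 and 839.55 TPM in Chd5-/- NSCs. Its log2 fold change, 0.22 with a standard error of 0.23 (adjusted p = 0.585), was under the median of all rows and became -0.20, -0.093 and -0.27 under median-of-ratios and quantile scaling and net of the trends. Eif1b, its close homolog, was at 148.49 and 111.99 TPM against 175.00 and 163.49 TPM, with 0.39 (standard error 0.24, adjusted p = 0.367) as deposited and -0.025 and -0.38 under median-of-ratios scaling and net of the trends. The autosomal and X-linked genes of eIF1A, the scanning factor, were both lower. Eif1ax (chromosome X, 159372178 to 159389928, plus strand) was at 386.41 and 416.98 TPM against 305.09 and 217.67 TPM (-0.64, standard error 0.26, adjusted p = 0.217), and Eif1a at 61.38 and 65.55 TPM against 51.95 and 38.20 TPM (-0.50, standard error 0.25, adjusted p = 0.283). Both kept this direction net of the trends, at -0.47 and -0.30, and both were lower at an unadjusted p-value under 0.05 under median-of-ratios scaling (-1.05 and -0.91). The autosomal Eif1a held 13.7% and 13.6% of the TPM of the pair in +/+ and 14.6% and 14.9% in Chd5-/- NSCs, so their proportion was nearly the same in all 4. Eif1ad, which carries an eIF1A-like domain, was at 28.51 and 24.01 TPM against 36.52 and 30.21 TPM.

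Among the eIF5 genes, 3 of 4 had negative log2 fold changes as deposited, against 3726 of the 12576 rows tested. Under median-of-ratios scaling 3 of 4 were again negative, against 6548 of these rows. None had an unadjusted p-value under 0.05 as deposited. Eif5, which triggers GTP hydrolysis by eIF2, was at 321.73 and 326.92 TPM in +/+ and 315.49 and 271.65 TPM in Chd5-/- NSCs. Eif5b, which joins the ribosomal subunits, was at 46.94 and 52.96 TPM against 41.07 and 32.37 TPM (log2 fold change -0.44, standard error 0.24, adjusted p = 0.320), or -0.48 net of the trends. Eif5a is the hypusine-bearing factor that now is known mainly for elongation. Its levels were 224.73 and 160.90 TPM against 322.81 and 235.55 TPM, with 0.53 (standard error 0.29, adjusted p = 0.317) as deposited and -0.27 net of the trends. Its paralog Eif5a2 was at 19.74 and 26.01 TPM against 20.69 and 13.20 TPM, with overlap (-0.43, standard error 0.32, adjusted p = 0.445), or -0.24 net of the trends. Eif5a held 91.9% and 86.1% of the pair in +/+ and 94.0% and 94.7% in Chd5-/- NSCs, a difference of 5.33 percentage points that was -0.041 net of the trends.

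Eif6 keeps the ribosomal subunits apart and takes part in making the large one (chromosome 2, 155819832 to 155826925, minus strand). Its RNA was at 9.28 and 7.26 TPM in +/+ and 29.86 and 17.86 TPM in Chd5-/- NSCs, so that every Chd5-/- value was above every +/+ value. The log2 fold change was 1.39 (standard error 0.34, adjusted p = 0.127), 0.43 net of the trends, 1.74 without Chd5-/- replicate 2, 1.03 without Chd5-/- replicate 1 and 1.23 without +/+ replicate 2. Its transcript had the highest GC content of the 45 genes.

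In proportion, the complexes kept their order in all 4 samples. The eIF4 genes held 34.8% and 34.4% of all initiation factor TPM in +/+ and 34.7% and 32.6% in Chd5-/- NSCs. The eIF3 genes held 28.0% and 26.5% against 29.2% and 32.4%, and the eIF2 genes 11.3% and 11.8% against 9.55% and 8.93%, each without overlap. The eIF2B genes held 1.22% and 1.01% against 1.70% and 1.57%, also without overlap. Shares of eIF1 (16.3% to 18.4%) and eIF5 (7.27% to 8.20%) overlapped.

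Of 25 regulators and partners of initiation listed with earlier results of these data known, 24 were tested and 0 passed the adjusted threshold, while 3 were higher and 1 was lower at an unadjusted p-value under 0.05 (against 21.9% and 2.27% of all rows). Their median log2 fold change was 0.11, against 0.34 for all rows. Mknk2, a kinase that phosphorylates eIF4E, was at 5.33 and 3.20 TPM in +/+ and 19.06 and 18.10 TPM in Chd5-/- NSCs (log2 fold change 1.92, standard error 0.32, adjusted p = 0.120), and its value was 0.96 net of the trends. Ppp1r15a, the stress-induced cofactor of eIF2 dephosphorylation, was at 3.46 and 2.44 TPM against 10.51 and 6.90 TPM (1.28, standard error 0.35, adjusted p = 0.134), or 0.48 net of the trends. Eif4ebp2, an eIF4E-binding repressor, was at 38.75 and 29.14 TPM against 53.06 and 81.36 TPM (0.95, standard error 0.31, adjusted p = 0.165), or 0.44 net of the trends.

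Among the lower ones, Mcts1, a partner in recycling and reinitiation, was at 133.25 and 136.56 TPM in +/+ and 94.99 and 86.04 TPM in Chd5-/- NSCs (log2 fold change -0.57, standard error 0.21, adjusted p = 0.185), or -0.45 net of the trends. The most negative value was that of Abce1, the ribosome recycling ATPase, at 208.25 and 222.32 TPM against 169.46 and 85.64 TPM (-0.83, standard error 0.36, adjusted p = 0.241), or -0.65 net of the trends. The 4 kinases of eIF2 had adjusted p-values of 0.392 or more. Eif2ak4 was at 9.26 and 7.81 TPM against 16.19 and 9.73 TPM, and Eif2ak1 at 46.36 and 39.04 TPM against 50.06 and 51.17 TPM, both without overlap, whereas Eif2ak2 and Eif2ak3 overlapped.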

How the data were processed

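RNA-seq was analysed in 4 samples, 2 +/+ and 2 Chd5-/-. The authors deposited 1 table of TPM values. Their processing notes name Bowtie2 2.2.3, RSEM 1.2.20 and mm10 (GRCm38) without roles; the annotation and strand setting are not given in the sources used here. Values were used as deposited, and depth cannot be read from TPM.

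The 12576 rows that averaged 1 TPM or more were fitted on log2(TPM + 1) with limma 3.58.1 in R 4.3.3 (eBayes with a trend, two-sided, no other terms), with Benjamini-Hochberg adjustment over all rows. P-values measure the spread between 2 cultures per genotype. Fold changes were given for genes with an unadjusted p-value under 0.05, the highest and lowest of each complex, and 7 paralog pairs. The genes and lists were chosen with earlier results of these data known. GC content and length came from the longest coding transcript in GENCODE M21, matched by symbol for 93.0% of rows and all 45 genes tested, and their trends were removed by loess (span 0.5). The whole fit was subtracted in each sample, so the offset of the sample was removed with the trends. Start windows are from RefSeq. The limma fit was tested on simulated data with known changes. Alternatives tried were pseudocounts of 0.1 and 5, a minimum of 10 TPM and none, other scalings, trend removal, replicate blocks, eBayes without the trend, and leaving out each sample. Python 3.11.15, pandas 2.3.3, numpy 2.4.6, scipy 1.17.1 and matplotlib 3.10.9 were used.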

Additional observations from a re-analysis of the deposited data

How the results depend on the processing

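At an unadjusted p-value under 0.05, 11 initiation factors were higher and 1 was lower as deposited. There were 4 and 10 under median-of-ratios scaling, 6 and 4 under quantile normalization, and 3 and 2 net of GC and length trends. With the replicate block net of the trends there were 1 and 2 (against 3.43% and 3.53% of all rows). The cause of the shift between scalings was not tested. With 1 sample left out, which assumes that a lone sample varies like the others, 2 (without +/+ replicate 2) to 13 were higher and 0 to 8 (without Chd5-/- replicate 1) lower, and 0 to 5 passed an adjusted p-value of 0.05, the 5 without Chd5-/- replicate 1 being Eif2s1, Eif3j1, Eif3k, Eif4b and Eif4e and the 2 without Chd5-/- replicate 2 being Eif3k and Eif6. All rows then gave 1247 and 1086 such calls. In every other alternative 0 passed. Among all rows, the share higher at the unadjusted threshold was also smallest without +/+ replicate 2. It was larger with either Chd5-/- sample left out than with either +/+ sample left out, as for the initiation factors. The share of all rows that was lower was also largest without Chd5-/- replicate 1. The direction of these shifts was therefore shared with all rows and not particular to initiation factors. Genes with Chd5-/- above +/+ numbered 11 under median-of-ratios scaling and 7 net of the trends, from 23.

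Medians under median-of-ratios scaling were -0.20 for all initiation factors, -0.20 for eIF1, -0.71 for eIF2, 0.40 for eIF2B, 0.044 for eIF3, -0.22 for eIF4 and -0.69 for eIF5. After quantile normalization they were -0.093 for eIF1, -0.50 for eIF2, -0.073 for eIF4 and 0.93 for eIF6. With the trends removed they were -0.17 for all, -0.30 for eIF1, 0.14 for eIF2B, 0.00034 for eIF3, -0.22 for eIF4 and 0.43 for eIF6. With 1 sample left out the medians ranged from 0.17 to 0.37 for all, from -0.39 to -0.019 for eIF2, from 0.27 to 0.64 for eIF3, from -0.12 to 0.39 for eIF4 and from -0.43 to -0.083 for eIF5, where the ends of eIF4 were without Chd5-/- replicate 1 and 2.

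Among the genes given with a fold change, these changed sign, and some of the other genes did so too. After median-of-ratios scaling Eif1 was at -0.20, Eif1b at -0.025 and Eif4g1 at -0.20, and under quantile normalization Eif1 was at -0.093. With the trends removed, with or without the replicate block, Eif1 was at -0.27, Eif1b at -0.38, Eif3g at -0.15, Eif4a2 at 0.058, Eif4g1 at -0.41 and Eif5a at -0.27. With 1 sample left out, Eif2b3 ranged from -0.57 (without Chd5-/- replicate 1) to 0.33 (without Chd5-/- replicate 2), Eif4a1 from -0.42 to 0.37 and Eif4g1 from -0.16 to 0.59 (without the same samples in turn), and Eif4a1 was at 0.11 without +/+ replicate 1. Paralog shares net of the trends differed by 1.07 percentage points for Eif1, 1.39 for Eif1a, -5.34 for Eif4a1, -8.97 for Eif4e, 7.51 for Eif4g1 and -0.041 for Eif5a.

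The labels give both genotypes replicates 1 and 2 but no shared source. Deviations of same-numbered samples had a weak negative correlation across all rows (-0.15). Among the 45 initiation factors tested, replicate 1 was the higher sample for 34 genes in +/+ and for 32 in Chd5-/- NSCs. With the replicate number as a block, 9 genes were higher and 1 lower (against 16.8% and 1.42% of all rows). With crossed numbers, added after the negative correlation was seen, there were also 9 and 1 (against 22.3% and 2.26%). Depth is unknown, so no counting error could be set beside levels under 10 TPM, such as those of Eif2b4 and Eif6.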
